A study of Mus musculus with 6 samples.

Results

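The 4 ID genes, Id1, Id2, Id3 and Id4, and the 3 E-protein genes Tcf3, Tcf4 and Tcf12 were followed in mouse acute myeloid leukaemia, as 7 of 30141 measured genes. The genes were chosen by name, with earlier results of these data known, and the array row of each was selected on its mean value over the arrays, the highest being taken. Each of the 7 symbols had exactly 1 row, so that selection had no effect on them. All 6 arrays held RNA of leukaemia cells driven by the MLL-AF9 fusion oncogene, which flow cytometry had sorted out of recipients' marrow once the disease was terminal. The 3 control arrays came from leukaemia of littermate origin, and the 3 Dnmt3b-KO arrays from leukaemia labelled as a knockout of Dnmt3b, which encodes a DNA methyltransferase that sets new methylation marks. Strain, age, the sort markers, the allele of the knockout and any driver of its deletion are not given in the sources used here, nor is it said whether an array is 1 mouse or a pool.

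E proteins are transcription factors of the basic helix-loop-helix class. They bind the E-box, CANNTG, as dimers with each other or with tissue-restricted partners such as TAL1 and LYL1. ID proteins carry the helix-loop-helix but no basic region, so that an E protein paired with one cannot bind DNA. In blood, E proteins drive B and T cell development, which ID proteins can restrain. ID genes are classic targets of bone morphogenetic protein (BMP) signals through SMAD factors. Tcf3 encodes E12 and E47, Tcf4 encodes E2-2 and Tcf12 encodes HEB. They are not the WNT effector genes Tcf7l1 and Tcf7l2, whose proteins are also called TCF3 and TCF4.

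Because Dnmt3b acts on CG dinucleotides, the promoters of Id2, Id3 and Id4 are shown, with each CG in capitals. They are the 250 bases before the start in RefSeq (GRCm38.p6), 5′ to 3′ on the gene's strand, and 5 of the 7 members, all but Id1 and Tcf4, had an entry there. Id2 lies on the minus strand at chr12:25096093-25096342, Id3 on the plus strand at chr4:136143572-136143821 and Id4 on the plus strand at chr13:48260866-48261115.
Id2: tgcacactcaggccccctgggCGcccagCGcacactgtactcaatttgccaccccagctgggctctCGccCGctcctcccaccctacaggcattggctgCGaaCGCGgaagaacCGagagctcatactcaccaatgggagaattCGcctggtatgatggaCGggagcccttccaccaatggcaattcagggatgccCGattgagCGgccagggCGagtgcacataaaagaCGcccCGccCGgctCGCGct
Id3: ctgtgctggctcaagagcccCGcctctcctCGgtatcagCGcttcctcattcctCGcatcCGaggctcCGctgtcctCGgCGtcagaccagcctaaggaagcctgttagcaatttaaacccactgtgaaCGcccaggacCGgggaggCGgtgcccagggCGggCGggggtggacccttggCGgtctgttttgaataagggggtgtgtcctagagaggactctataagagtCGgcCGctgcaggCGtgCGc
Id4: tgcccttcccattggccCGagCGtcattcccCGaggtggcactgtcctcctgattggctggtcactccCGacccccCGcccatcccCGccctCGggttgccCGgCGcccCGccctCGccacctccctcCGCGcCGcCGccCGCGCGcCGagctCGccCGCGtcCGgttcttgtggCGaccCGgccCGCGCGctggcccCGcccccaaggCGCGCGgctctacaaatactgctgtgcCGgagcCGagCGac

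Id2 and Id3 each held 18 CG in this window and Id4 held 35, against a median of 6 over 27025 promoters of the same length. Of these promoters 78.4% held fewer than 18, and 97.2% held fewer than 35. Tcf3 held 18, and the 3 starts listed for Tcf12 held 38, 39 and 0. The letters GGCGCC, the form bound by SMAD factors of the BMP branch, were present once in Id2 and once in Id4, and were not found in the Id3 window; 9.5% of all promoters held them. The E-box CANNTG, which reads the same on both strands, occurred once in Id2 and was not found in Id3 or Id4, with 66.0% of promoters holding it. CCAAT on either strand occurred 3 times in Id2, 2 times in Id4 and not in Id3, against 34.5% of promoters with at least 1. These are matches of letters, and no methylation or binding was measured here. Id2 changed between the arrays while Id3 and Id4 measured at background, as given below.

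Values are on the deposited log2 scale, which reaches 19.59 and so lies beyond what a scanner reads directly, and differences are therefore given in log2 units and not as folds. Medians over genes ran from 4.75 to 4.85 per array, and precision is limited by there being 6 arrays. The 23 background rows of the array measured 2.30 to 5.62. Of 12 genes fixed as markers of the leukaemia 10 had a row, all above background, among them Mpo, Kit, Itgam and Meis1. Dnmt3b itself measured 6.76, 6.83 and 6.78 on the control arrays. It measured 6.47, 6.63 and 5.96 on those of Dnmt3b-KO replicates 1 to 3. Over 6 arrays the groups did not overlap, as was so for 14.9% of all genes. The 6-array difference of Dnmt3b was -0.44 ± 0.17 (SE, limma, adjusted p = 0.78). Without Dnmt3b-KO replicate 3 the Dnmt3b difference was -0.24 ± 0.07 (limma, adjusted p = 0.16). Whether the row covers the deleted part of the gene is unknown here, so it checks the labels weakly. Dnmt3b-KO replicate 3 stood apart, with correlations across genes of 0.981 to 0.982 with the other arrays, against 0.998 to 0.999 among those 5. It measured 8.26 for the Y-linked gene Eif2s3y, against 4.41 to 4.54 elsewhere. The X-inactivation transcript Xist remained high there, at 15.44 against 16.66 to 16.79 elsewhere. That array thus held both Y-linked and Xist signal, and the source of either was not tested. Of 14 macrophage markers, 11 were higher there by more than 1 than on the mean of Dnmt3b-KO replicates 1 and 2. Each comparison is therefore given over 6 arrays and over the 5 without it.

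Id2 was the member that differed from control on every Dnmt3b-KO array. The 3 controls gave 6.61, 6.63 and 6.75, and Dnmt3b-KO replicates 1 to 3 gave 7.67, 7.37 and 7.78. Every Dnmt3b-KO array lay above every control. Groups that did not overlap, in either direction, were found for 14.9% of all genes. Id2 on replicate 3, an array far from the others in much of the transcriptome, was 0.26 above the mean of replicates 1 and 2. Whether the macrophage signal of replicate 3 had a part in its Id2 value was not tested. Over 6 arrays the difference was 0.94 ± 0.12 (SE, n = 3 and 3; limma, adjusted p = 0.31), short of the 0.05 required. Without Dnmt3b-KO replicate 3, Id2 rose by 0.86 ± 0.10 (limma, adjusted p = 0.025). With each array weighted by its scatter around its group across genes, Id2 passed over 6 arrays (0.83 ± 0.10, limma, adjusted p = 0.038). Replicate 3 was then weighted at 0.11 and each other array at 1.26 to 2.17, so replicate 3 counted for little.

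Id1 rose on Dnmt3b-KO replicates 1 and 2 and lay below every control on replicate 3. The control arrays measured 9.857, 9.727 and 10.004, and the Dnmt3b-KO arrays 10.77, 10.71 and 9.06. Replicates 1 and 2 thus differed from each other by less than the controls did, while replicate 3 was lower than their mean by 1.67 on the log2 scale. Over 6 arrays the difference was 0.32 ± 0.47 (SE; limma, adjusted p = 0.88), and over 5 arrays it was 0.87 ± 0.09 (limma, adjusted p = 0.018). Weighting the 6 arrays by their scatter gave 0.81 ± 0.17, which did not pass (limma, adjusted p = 0.12). The unweighted 6-array difference fell to 0.022 without Dnmt3b-KO replicate 1 and to 0.05 without replicate 2. Id1 and Id2 therefore moved alike on Dnmt3b-KO replicates 1 and 2 and apart on replicate 3.

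Id3 and Id4 stayed within the range of the background rows on all arrays. Id3 measured 4.18 ± 0.03 (SD, n = 3) in control and 4.20 ± 0.05 in Dnmt3b-KO, and Id4 measured 3.34 ± 0.10 and 3.37 ± 0.02. Whether either gene differed cannot be read at this signal.

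None of the 3 E-protein genes passed the threshold in either fit. Tcf4 measured 6.08, 6.18 and 6.13 in control, 6.06 and 6.02 on Dnmt3b-KO replicates 1 and 2, and 8.29 on replicate 3. One array thus carries the 6-array difference of 0.66 ± 0.62 (SE; limma, adjusted p = 0.84), which without it was -0.09 ± 0.06 (adjusted p = 0.55). Tcf3 measured 7.64, 7.61 and 7.69 in control and 7.70, 7.64 and 7.25 in Dnmt3b-KO, the last being the lowest of the 6. For Tcf12 the control arrays gave 9.40, 9.37 and 9.50 and the Dnmt3b-KO arrays 9.49, 9.37 and 9.78, the last being the highest. Differences over 5 arrays were 0.022 ± 0.06 for Tcf3 and 0.0049 ± 0.07 for Tcf12 (limma, adjusted p = 0.92 and 0.99).

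**Figure D1:**
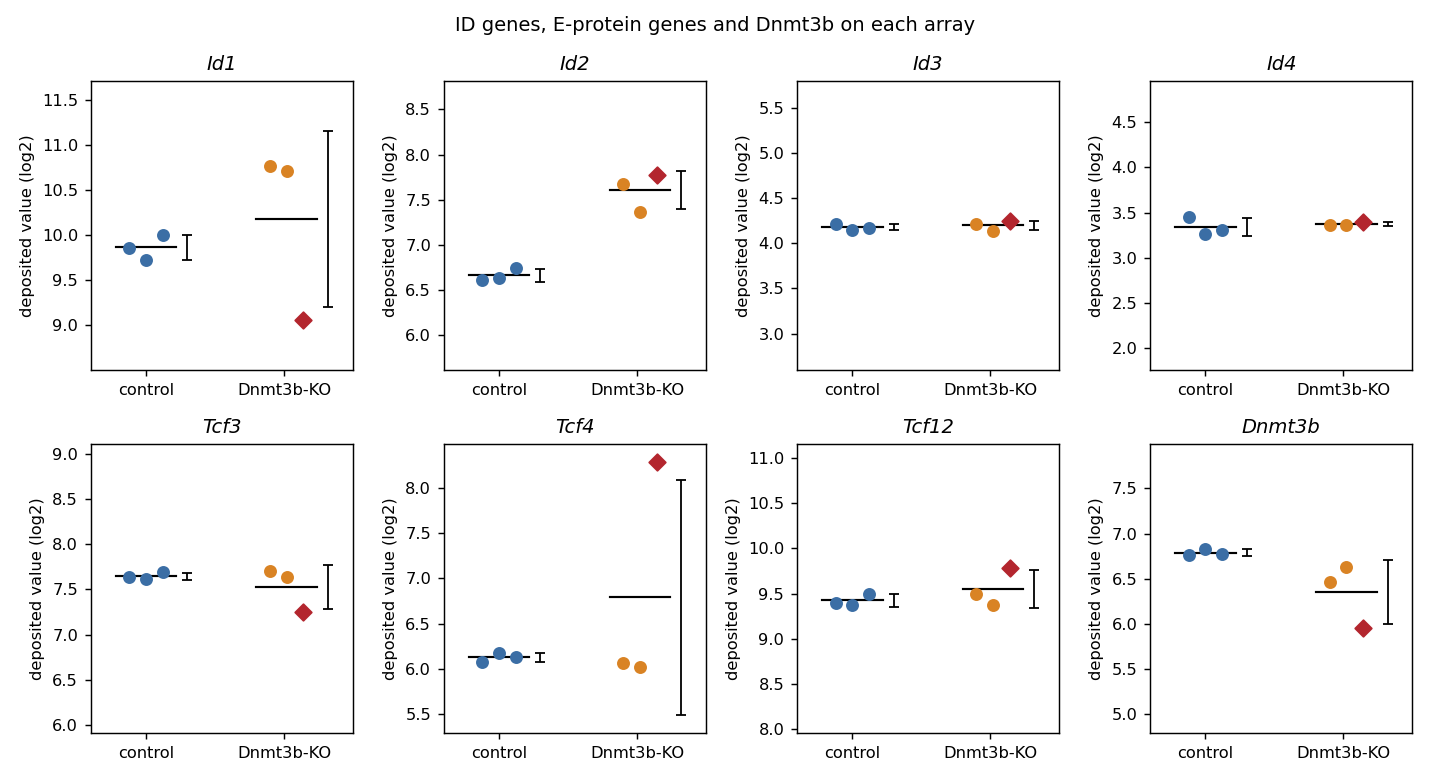
Deposited log2 value (y axis, the same span in every panel) of each gene in control (blue) and Dnmt3b-KO (orange, replicates 1 and 2; red diamond, replicate 3), with group mean (line) and SD of 3 arrays (bar). Id2 is higher on all 3 Dnmt3b-KO arrays, Id1 on 2 of them, and Tcf4 on replicate 3 alone, at 8.29.

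Over 6 arrays 0 of the 7 members were called at an adjusted p under 0.05 by limma, as were 0% of all genes; 1 member and 1920 genes had an unadjusted p under 0.05. For 1 member, Id2, the groups did not overlap, a share no higher than the 14.9% of all genes. Over 5 arrays 2 of the 7 were called, both higher, against 1.69% of all genes called and 0.939% called higher. The median difference of the 7 was 0.12 over 6 arrays and 0.022 over 5, beside -0.0036 and -0.0096 over all genes. Dnmt3b-KO replicate 3 differed by more than 1 from the mean of replicates 1 and 2 in 2 members, Id1 and Tcf4, and in 6.97% of all genes. Since the family was chosen with results known, these counts are a description of it.

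The calls rest on few arrays. Id1 lost the threshold over the remaining arrays without control replicate 1 (adjusted p = 0.092), Dnmt3b-KO replicate 1 (0.15) or Dnmt3b-KO replicate 2 (0.11), and Id2 without any 1 of the 5 (adjusted p = 0.06 to 0.13, limma), while the differences stayed between 0.81 and 0.94 for Id1 and between 0.70 and 1.01 for Id2.

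Id1 lies on chromosome 2 near the targeted gene. In the reference table (GRCm38.p6) 30 genes separate Id1 from Dnmt3b, and 22 of them had a row. With 10 places added on each side, 38 genes besides Dnmt3b were measured. Over 5 arrays 2 of these 38 were called, both higher, against 1.69% of all genes. They were Id1, whose place set the stretch, and Ccm2l, which lies between Id1 and Dnmt3b. Besides Id1, 1 of 37 was thus called, too few to read as a share. Ccm2l encodes a homologue of the cerebral cavernous malformation protein CCM2. Ccm2l measured 5.72, 5.77 and 5.71 in control, 6.42 and 6.19 on Dnmt3b-KO replicates 1 and 2, and 5.37 on replicate 3. It rose by 0.57 ± 0.08 over 5 arrays (limma, adjusted p = 0.032) from a level close to the background rows, and like Id1 lay below every control on replicate 3. That call was lost without any 1 of the 5 arrays.

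Most of the stretch lay near 0. The 37 genes other than Id1 and Dnmt3b had a median 5-array difference of -0.0027, with 17 above and 20 below 0, from -0.15 to 0.57; 18 of them had a mean above the background rows. The genes on either side of Id1 differ from it: Mcts2 measured 10.85, 10.84 and 10.88 in control and 10.60 and 11.07 on Dnmt3b-KO replicates 1 and 2, and Gm14162 measured 6.46, 6.54 and 6.31 against 6.47 and 6.13. Commd7, next to Dnmt3b, differed by -0.03, and Asxl1, a chromatin regulator 5 places from Dnmt3b, by 0.10. Over 6 arrays 0 of the 38 were called, and 1 other neighbour of the group, Mapre1, had an unadjusted 5-array p under 0.05. On replicate 3, Mcts2 at 9.41 and Gm14162 at 5.32 also lay below every control, as Id1 did. So did many genes across the stretch, among them H13, Tpx2, Pofut1, Commd7 and Mapre1, while others, such as Bcl2l1 and Kif3b, lay above. That position is therefore not particular to Id1, Ccm2l or the genes beside Id1. The labels do not say what DNA beside the Dnmt3b allele the 2 groups of leukaemias share, so a part of the linked position in the rise of Id1 was not tested. Id2, which rose on the same arrays, lies on chromosome 12.

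**Figure D2:**
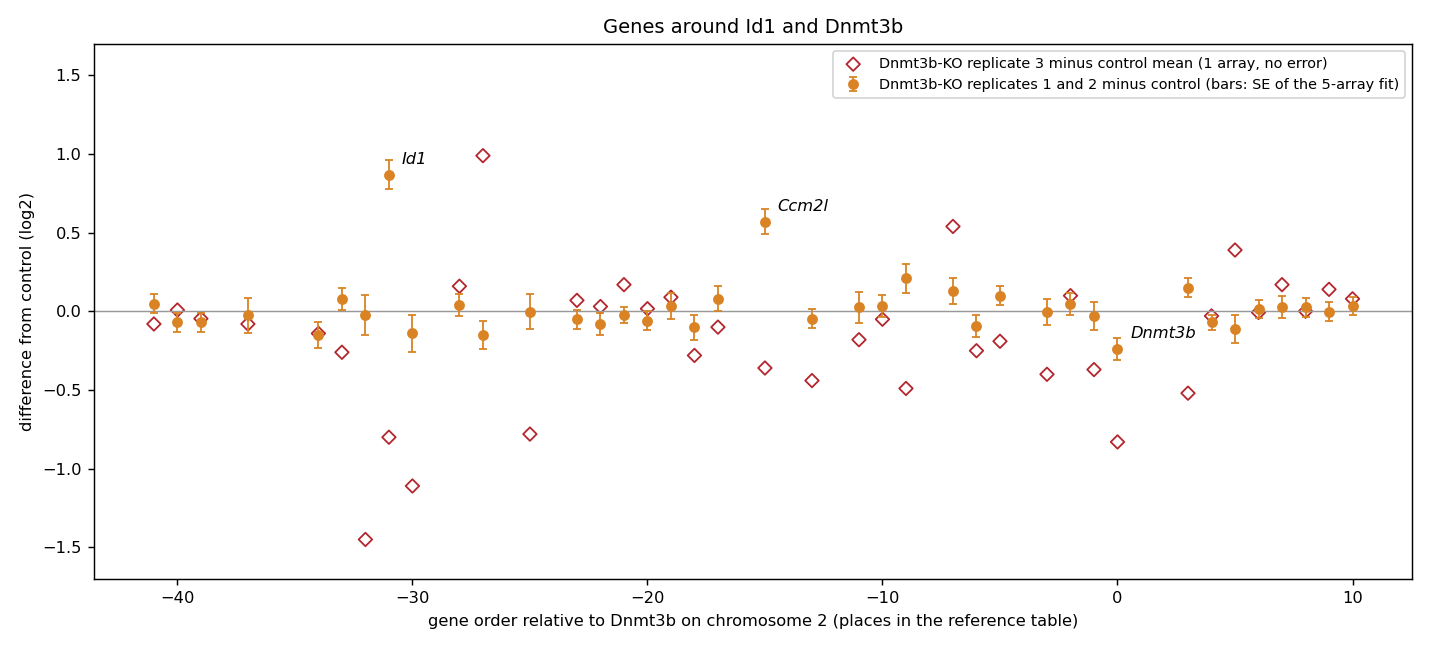
Difference from control in log2 units (y axis) against gene order relative to Dnmt3b on chromosome 2 (x axis, places in the reference table; unmeasured genes leave gaps), for Dnmt3b-KO replicates 1 and 2 (orange, bars are SE) and replicate 3 (open red). Id1 at 0.87 and Ccm2l at 0.57 stand above the other orange points, which lie near 0.

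Of 28 BMP and TGF-beta pathway genes, which act upstream of the ID genes, 1 rose, 0 fell and 27 did not pass over 5 arrays; over 6 arrays 0 were called. The one that rose was Eng, endoglin, a co-receptor for BMP and TGF-beta ligands. Eng measured 6.80 ± 0.07 (SD, n = 3) in control, 7.72 and 7.68 on Dnmt3b-KO replicates 1 and 2, and 6.56 on replicate 3. Its 5-array difference was 0.89 ± 0.06 (limma, adjusted p = 0.005), and like Id1 it lay below every control on replicate 3; the call was lost without Dnmt3b-KO replicate 1 (adjusted p = 0.077) or 2 (0.06). The list's median difference was 0.017. Smad6 and Smad7, inhibitory SMAD genes that BMP signals also induce, measured within the background rows on all arrays.

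On Dnmt3b-KO replicate 3 some of the pathway's receptors lay far from the other arrays and others did not; they are named here after their values were seen. Bmpr2, the type II BMP receptor, measured 11.99 there, against 6.85 and 6.57 on Dnmt3b-KO replicates 1 and 2 and 6.49 as control mean. Bmpr1a, a type I receptor, measured 9.06 against 4.09 and 4.10 there, values within background. In all 6 genes were higher by more than 1, the others being Acvr1, Acvr2a, Acvrl1 and Tgfbr2, and 2 were lower, Eng and the pseudoreceptor gene Bambi. Acvr1 and Acvrl1, at 5.09 and 5.59 on replicate 3, stayed within the background rows even there, which limits what can be read from them. The receptor genes Acvr1b and Acvr2b, at 7.40 and 5.71 on replicate 3, differed from the mean of replicates 1 and 2 by -0.0096 and 0.06, and Tgfbr1, at 9.57, by -0.63. That same array had the lowest Id1 and the highest Id2 and Tcf4. Over all genes, 1215 were higher and 885 lower there by more than 1, so many genes share either direction. A link between the receptors and the members was not tested.

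**Figure D3:**
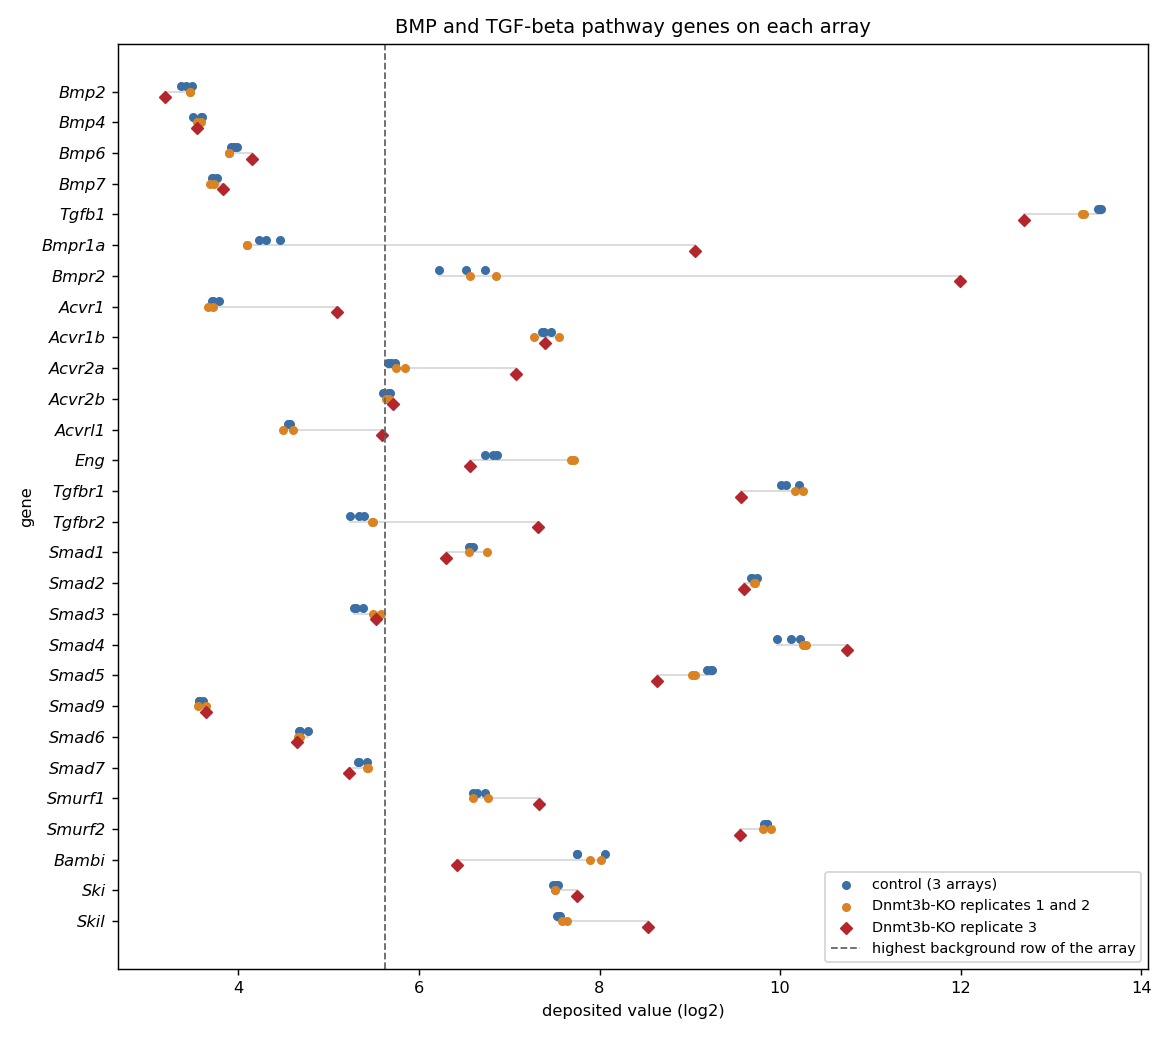
Deposited log2 values (x axis) of 28 BMP and TGF-beta pathway genes (y axis) on 3 control arrays (blue), Dnmt3b-KO replicates 1 and 2 (orange) and replicate 3 (red diamonds); the dashed line is the highest background row, 5.62. Eng has the widest gap between orange and blue points, and Bmpr1a and Bmpr2 are those where replicate 3 lies farthest away.

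Among 13 measured genes of the complex that TAL1 and LYL1 form with E proteins, 0 rose and 1 fell over 5 arrays. Gata2, a stem and progenitor cell factor, fell from 7.36 ± 0.10 to 6.86 and 6.89 (-0.48 ± 0.07, limma, adjusted p = 0.04) and measured 6.22 on replicate 3; the call was lost without any 1 of the 5 arrays. Lyl1, at 14.28, 14.33 and 14.41 in control and 14.21, 14.28 and 13.82 in Dnmt3b-KO, and Lmo2, with a 5-array difference of -0.15 ± 0.08 (adjusted p = 0.44), did not pass. The median difference of this list was -0.09. Of 21 E-protein target genes 0 passed, with a median difference of -0.026; 15 of them stayed at or below the highest background row on every array. The smallest p was that of Cdkn1b, a CDK inhibitor gene, which measured 8.65 ± 0.03 in control and 8.96 and 8.93 on Dnmt3b-KO replicates 1 and 2 (limma, adjusted p = 0.062), but 8.29, below every control, on replicate 3. Cdkn1a, which E proteins activate and ID proteins oppose, had a control mean of 8.84 and measured 8.53 and 8.38 on Dnmt3b-KO replicates 1 and 2 and 11.66 on replicate 3. Other HLH genes (20 measured) and the EGR genes with regulators of ID protein turnover (10 measured) had 0 calls and medians of -0.029 and -0.05. Msc, at 4.08 and 3.99 against 3.87 ± 0.06, and Egr3, at 4.71 and 4.65 against 4.81 ± 0.06, had the smallest p of these and lay within background.

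Markers of other cells were set beside the members. Summed over 14 macrophage markers the log2 values ran from 99.1 to 101.8 in control, were 102.2 and 99.7 on Dnmt3b-KO replicates 1 and 2, and 148.8 on replicate 3; among them Mrc1 measured 12.05 there and at background elsewhere. Their part in the high Tcf4, high Id2 and low Id1 of that array was not tested. In sorted bulk RNA, fewer cells of a type and less RNA per cell cannot be told apart. Over 5 arrays 0 of the 14 were called, with C1qa, in background, at the smallest p. Of 9 plasmacytoid dendritic cell markers, the cells in which E2-2 is the defining factor, 0 were called, and Siglech (5.20), Spib (3.41) and Ccr9 (4.34) were at background on replicate 3 as on all arrays, while Bst2 and Cox6a2 were higher there by more than 1. That list's sum ran from 43.2 to 44.4 in control and was 43.2, 42.6 and 49.3 in Dnmt3b-KO. Irf8, with the smallest p of the list, measured 7.84 ± 0.28 in control and 7.50, 6.99 and 8.18 in Dnmt3b-KO.

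The sums over 9 B cell markers (40.8 to 42.2 in control; 41.2, 40.7 and 44.6 in Dnmt3b-KO), 10 T, NK and innate lymphoid markers (39.5 to 40.4; 39.7, 39.5 and 43.9) and 9 endothelial markers (40.0 to 40.3; 39.7, 39.7 and 38.1) had 0 calls. Single genes above background were Cd79b, 9.13 in control and 7.79 on replicate 3, Blnk and Il7r, at 8.78 and 7.20 on replicate 3 alone, and Pecam1, 10.35 in control and 8.13 on replicate 3. Of 7 erythroid markers 0 were called, and Alas2 measured 7.09 ± 0.37 in control and 6.11, 5.78 and 5.63 in Dnmt3b-KO; sums were 39.5 to 41.0 and 38.4, 37.5 and 37.6. Of the leukaemia markers Meis1, a HOX cofactor gene, rose by 0.65 ± 0.06 (limma, adjusted p = 0.011) and Cd34 fell by 1.01 ± 0.15 (adjusted p = 0.038) over 5 arrays; both lay below every control on replicate 3, where 6 of the 10 were lower by more than 1 and 1, Itgam, higher. The Meis1 call was lost without control replicate 1 (adjusted p = 0.067), Dnmt3b-KO replicate 1 (0.11) or 2 (0.082), and that of Cd34 without any 1 of the 5.

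For the 3 members whose arrays spanned at least 1 log2 unit, the nearest of 10624 genes were sought by Euclidean distance between values centred over the 6 arrays. Nearest to Id1 was Gpc1, a glypican gene, at a distance of 0.23. It measured 10.89, 10.75 and 10.93 in control and 11.82, 11.64 and 10.28 in Dnmt3b-KO. F5, coagulation factor V, and Kcnip3 followed at 0.26 and 0.29, all 3 higher on replicates 1 and 2 and lowest on replicate 3. Nearest to Id2 were Ccl9, a chemokine gene, Tmem71 and Siglece, an inhibitory receptor gene, at 0.31, 0.32 and 0.38, each higher on all 3 Dnmt3b-KO arrays. Tgif1, which encodes a repressor of TGF-beta responses, was nearest to Tcf4 at 0.09, with 9.84 on replicate 3 and 7.46 to 7.63 elsewhere, before Tmem144 and Spryd7 at 0.10 and 0.11. Tcf4's likeness rests on replicate 3 alone, and many genes share that shape, since 1215 were higher there by more than 1. Another 885 were lower there by more than 1, as Id1 was. The genes named for each member were picked for likeness on these same 6 arrays, so a shared shape follows from the choice.

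**Figure D4:**
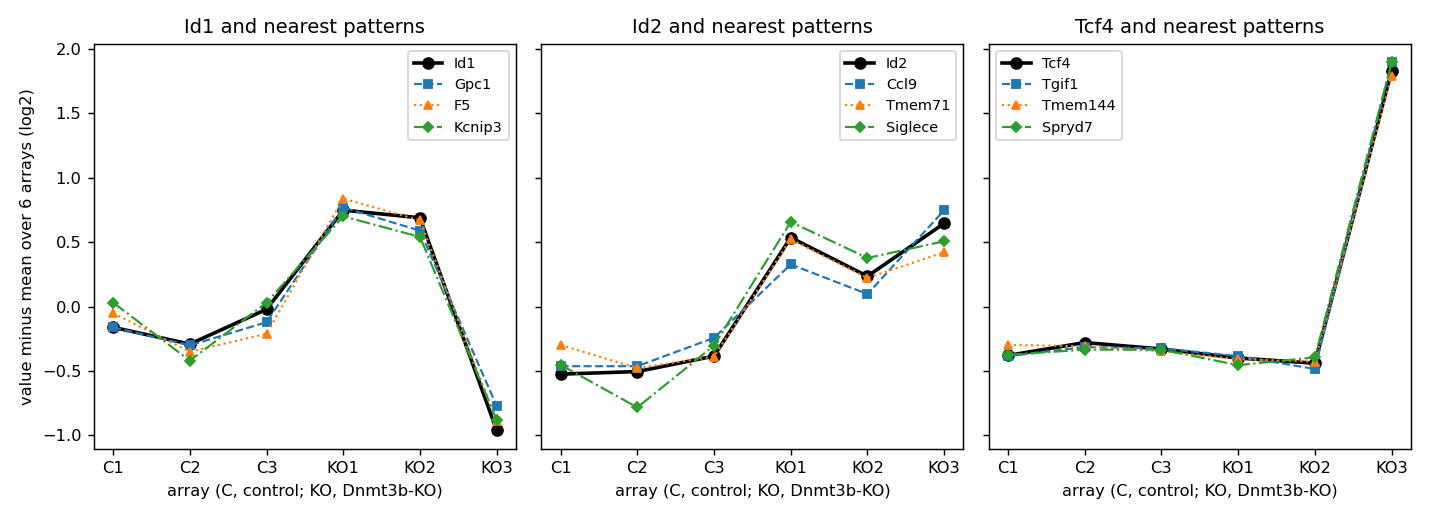
Value minus the gene's mean over 6 arrays, in log2 units (y axis), on each array (x axis; C, control; KO, Dnmt3b-KO) for Id1, Id2 and Tcf4 (black) and the 3 nearest genes of each (coloured). Id1 peaks on Dnmt3b-KO replicates 1 and 2, Id2 is high on all 3 and Tcf4 on replicate 3.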

How the data were processed

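RNA of 6 samples was labelled with biotin by the Affymetrix protocol, per the labels. The deposited log2 values were normalized by the authors with RMA, as the submitters' processing notes name it without a version. How the scale came to reach 19.59 is not stated. Of 72688 rows, 30604 carried exactly 1 symbol in the platform annotation, 813 of these were updated by gene identifier, and each of 30141 genes was represented by its brightest row on average.

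Groups were compared with limma 3.58.1 in R 4.3.3 (lmFit, eBayes, Benjamini-Hochberg over all genes, threshold 0.05), over 6 arrays and over 5. The fit was tested on simulated data. Since the labels do not say if each replicate is its own mouse, a p-value reflects only how far these samples scatter, and that scatter may be technical. A difference of more than 1 was used to describe Dnmt3b-KO replicate 3. The share of all genes outside the controls on that array was not counted, so such a position is only described.

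The members, the 12 gene lists and the comparison over 5 arrays were chosen with earlier results of these data known. The text names the 7 members, Dnmt3b, from each list at most 2 called genes in either direction or, with none called, the gene of smallest p, the called neighbours of Dnmt3b and 3 like-patterned genes per member (no clone names); other genes were named after their values were seen. Alternatives were arrays left out in turn, a replicate block, array weights, robust fitting with a trended variance, quantile normalization, centring, a filter on dim genes and the mean of a gene's rows.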

Additional observations from a re-analysis of the deposited data

How the results depend on the processing

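Over 6 arrays the 0 genes and 0 members called became 103 genes and 1 member with array weights, and ranged from 0 to 509 genes and 0 to 2 members when each array was left out, the upper ends without Dnmt3b-KO replicate 3. Array weights turned the differences of Id3 (0.021 to -0.0099), Tcf3 (-0.12 to 0.00042), Tcf4 (0.66 to -0.022) and Tcf12 (0.12 to -0.0011), and moved Id1 from 0.32 to 0.81. Over 5 arrays the 509 genes and 2 members became 96 and 1 with the replicate block. Among genes above the median level, where fewer were tested, 1003 genes were called. In the block fit control replicate 3 had no same-numbered Dnmt3b-KO sample, so it did not enter the differences. Those of Id1 (0.94) and Id2 (0.90) were the same as without that array, where 97 genes and 1 member were called. With the replicate block Id2 (0.90, adjusted p = 0.08) lost the threshold, as did Ccm2l, Meis1, Cd34 and Gata2 (adjusted p = 0.12, 0.066, 0.14 and 0.091); Id1 kept it. The replicate numbers were not taken as pairs: deviations of same-numbered samples correlated at 0.16, 0.07 and 0.14. Leaving out 1 more array gave 13 to 264 genes and 0 to 1 members, fewer for each of the 5 arrays, a lone Dnmt3b-KO array being assumed to vary like the controls. Id3, at 0 within its error, was 0.018 after quantile normalization and 0.012 with centred arrays. Leave-one-out values crossed 0 for Id3 (-0.00086 to 0.049 over 6 arrays, -0.036 to 0.035 over 5), Id4 (-0.0051 to 0.09 and -0.018 to 0.08), Tcf3 (-0.20 to 0.022 and -0.0086 to 0.05), Tcf4 (-0.09 to 1.04 over 6) and Tcf12 (-0.06 to 0.07 over 5). Id1, Id2 and Dnmt3b kept their direction under every alternative run. Apart from leaving arrays out, 131 refitted values of single genes kept direction and side of the threshold, 6 turned, 5 lost the threshold and 1 gained it. For Id3 and Id4, whose values lie within the background rows, signal limits what can be read.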
